A study of Mus musculus with 16 samples.

Results

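The genes described here are 10 immediate early genes of the stress and growth factor response, *Fos*, *Fosb*, *Jun*, *Junb*, *Jund*, *Egr1*, *Atf3*, *Ier2*, *Ier3* and *Myc*, measured in mouse liver. They were chosen by name, and every probe whose RefSeq accession belongs to one of them was taken, which gave 13 probes among the 41174 probes of the array and 10 genes among the 19096 genes with a symbol. Expression was measured in liver outside tumours of 16 male mice, 1 array per mouse and 4 mice per group, on arrays of 1 colour (Cy3). All 16 mice had received N-diethylnitrosamine (DEN), a genotoxic carcinogen of the liver, as 1 dose of 90 mg/kg when 5 weeks old, and all were killed at 57 weeks. The groups were wild type (WT) mice with DEN alone, WT mice with DEN and then phenobarbital (PB), a tumour promoter, at 0.5 g/l in the drinking water from 7 weeks of age, and mice with a null mutation of *Gadd45b* (KO) with DEN alone or with DEN + PB. No group was free of DEN. The null allele is constitutive, so *Gadd45b* is disrupted in every cell type of the liver. WT mice were C57BL/6J, the KO line is listed as a stock of mixed background, and a difference of strain cannot be told apart from the genotype.

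Immediate early genes are transcribed within minutes of a stimulus from factors already present in the cell, and their transcripts are short lived. FOS and JUN family proteins pair to form the transcription factor AP-1, which in the liver takes part in regeneration, stress responses and tumour growth. GADD45B binds the kinase MKK7 and restrains JNK, the kinase that phosphorylates JUN, and it is itself induced by stress. The comparison asked whether these genes differ between livers with and without *Gadd45b*, whether PB changes them, and whether they follow the *Gadd45b* level among WT mice.

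All levels below are log2 signals relative to the 75th percentile of the same array, given in the order of replicates 1 to 4, so a difference of 1 is a doubling. The 75th percentile lay between 137 and 294 units of processed signal, and between 57.6% and 67.3% of probes were well above background. The 13 probes all entered the tests, in which 24455 probes took part. Of these 13 probes, 12 were well above background on all 16 arrays, and the exception was *Fosb*, which was above background on 2 of 4 WT DEN arrays, 3 of 4 WT DEN + PB arrays and all 8 KO arrays. Where a gene has several probes, the brightest is given. *Gadd45b* was well above background on all 8 WT arrays and on none of the 8 KO arrays. It was at least 23.6-fold higher in WT than in KO under DEN and at least 44.8-fold higher under DEN + PB. Each bound is set against the lowest signal that counts as above background, and the bounds were not tested. The fit over the 16 arrays gave adjusted p = 4.9e-08 and 1.02e-08, but from KO signals that were not above background. *Gadd45b* entered the tests only through the WT groups. In WT mice its levels were -0.60, -0.54, 0.12 and -1.70 under DEN and -0.16, 0.56, 1.17 and 0.58 under DEN + PB.

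**Figure D1:**
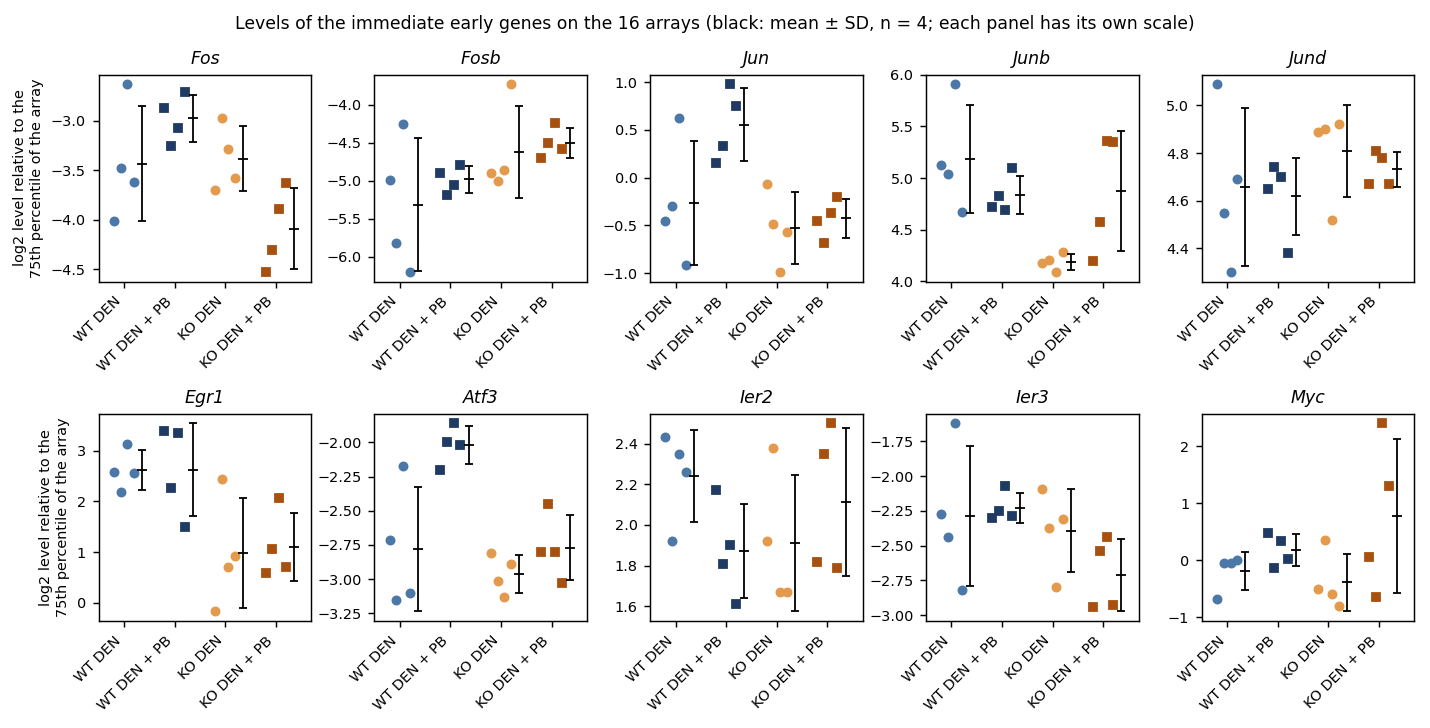
Log2 level of the 10 immediate early genes relative to the 75th percentile of the array (vertical axis, with its own scale for each gene) in the 4 groups (horizontal axis). Each point is 1 mouse, in the order of replicates, and black marks give mean ± SD, n = 4. *Fos*, *Jun* and *Atf3* of the KO DEN + PB mice all sit below those of the WT DEN + PB mice, the 4 *Junb* levels of KO DEN mice lie between 4.09 and 4.28, and *Myc* of 2 KO DEN + PB mice reaches 1.30 and 2.40.

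Under DEN + PB, *Fos*, *Jun* and *Atf3* were lower in KO than in WT livers. These were 3 of the 10 genes, and none of the 10 was called higher. A gene was called where the adjusted p in the fit over all probes was under 0.05 and the change at least 1.5-fold. Of all probes tested, 6.7% were called in this comparison and 4.58% were called lower. At an unadjusted p under 0.05 there were 5 of the 10 genes, beside 22.9% of probes. Over the 10 genes, 5 were higher and 5 lower, with a median log2 change of -0.22 beside 0.05 over all probes. The 5 higher and the median include *Fosb* (0.47), which entered the tests only through the KO groups.

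*Fos*, a partner of JUN proteins in AP-1, read -2.87, -3.26, -3.07 and -2.71 in WT DEN + PB livers and -4.53, -4.31, -3.89 and -3.63 in KO DEN + PB livers. Every KO mouse lay below every WT mouse. The log2 change was -1.11 ± 0.27 (SE), or 2.16-fold lower (adjusted p = 0.0188). The exact permutation test gave p = 0.0286, the smallest that 4 arrays against 4 allow. Each of the 4 slides held 1 WT and 1 KO array of this treatment, and *Fos* was lower in KO on all 4, by -1.82 to -0.37. Under DEN alone the groups overlapped, with WT levels of -4.01, -3.48, -2.63 and -3.62, KO levels of -3.70, -2.97, -3.29 and -3.58 and a log2 change of 0.05 ± 0.27 (adjusted p = 0.937).

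*Jun*, the main partner of FOS and the substrate of JNK, read 0.15, 0.33, 0.98 and 0.75 in WT DEN + PB livers and -0.45, -0.69, -0.37 and -0.20 in KO DEN + PB livers. Again the groups did not overlap. It was 1.97-fold lower in KO, a log2 change of -0.98 ± 0.28 (adjusted p = 0.0471), and lower on all 4 slides by -1.34 to -0.53. Under DEN alone WT livers gave -0.46, -0.30, 0.62 and -0.92 and KO livers gave -0.07, -0.49, -0.99 and -0.57, which overlapped. Over both treatments *Jun* was 1.54-fold lower in KO (-0.62 ± 0.20, adjusted p = 0.0425, exact permutation within treatments p = 0.02). This average was not called in 8 of 12 other settings. The adjusted p was 0.19 with normexp, 0.174 with its offset of 1, 0.0737 in the unscaled series table, 0.089 with no filter, 0.0786 with slide as a block, 0.0547 with the replicate number as a block and 0.0724 with no moderation. With normexp and no spots of outlying background it was 0.0365 at a change under 1.5-fold (-0.49).

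*Atf3*, a stress-induced repressor of the ATF family that also pairs with JUN, read -2.20, -2.0, -1.86 and -2.02 in WT DEN + PB livers and -2.80, -2.45, -2.80 and -3.03 in KO DEN + PB livers. The 4 KO levels were all below the 4 WT levels and lay in the range of the DEN groups. It was 1.68-fold lower in KO, a log2 change of -0.75 ± 0.20 (adjusted p = 0.0295), and lower on all 4 slides by -1.04 to -0.24. Under DEN alone the levels were -2.71, -3.15, -2.17 and -3.10 in WT and -2.81, -3.01, -3.13 and -2.89 in KO, a log2 change of -0.17 ± 0.20.

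The processed signals of *Fos* (8.50 to 40.4 units) and *Atf3* (19.6 to 81.2 units) were low. With normexp background correction and its offset of 50 units, which is above most of these signals, the log2 change was -0.44 for both genes (adjusted p = 0.877 and 0.794). With an offset of 1, added after the data were seen, it was -1.29 and -0.97 (adjusted p = 0.456 and 0.447), and so the direction was the same with neither gene called. When spots of outlying background were also left out, the change was -0.09 and -0.21 with the offset of 50 and -0.70 and -0.61 with the offset of 1 (adjusted p = 0.0716 and 0.0558). The call of *Fos* was also lost without WT DEN + PB replicate 4 or KO DEN + PB replicate 1 or 2 (adjusted p from 0.0513 to 0.0636), and that of *Atf3* without WT DEN + PB replicate 2, 3 or 4 or KO DEN + PB replicate 1, 3 or 4 (0.0545 to 0.0902). *Jun* was the closest to the threshold, and its call was lost on leaving out any of WT DEN replicates 1 and 2, WT DEN + PB replicates 2, 3 and 4, KO DEN replicate 4 and KO DEN + PB replicates 1 to 4 (0.0565 to 0.135), with slide as a block (0.0772), with the replicate number as a block (0.0631), with no moderation (0.0865), with no filter (0.105) and with normexp (0.365). The call of *Jun* was also lost with normexp at the offset of 1. Without the filter that of *Atf3* was lost too (0.0706). For all 3 genes the change kept its sign in every one of these settings.

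The promoters of these 3 genes are shown because each was called lower in KO under DEN + PB. Each sequence is the 250 bases before the transcription start in RefSeq on build GRCm38.p6, 5′ to 3′ on the strand of the gene. Capitals mark TGACG, a partial cAMP response element (CRE), or its reverse complement CGTCA, and in *Jun* the sequence TGACATCA.
Fos, chr12:85473640-85473889, plus strand: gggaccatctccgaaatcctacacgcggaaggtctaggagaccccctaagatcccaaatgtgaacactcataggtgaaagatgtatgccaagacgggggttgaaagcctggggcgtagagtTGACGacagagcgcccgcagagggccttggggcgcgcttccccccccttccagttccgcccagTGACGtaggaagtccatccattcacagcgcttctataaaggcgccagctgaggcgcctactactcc
Jun, chr4:95052223-95052472, minus strand: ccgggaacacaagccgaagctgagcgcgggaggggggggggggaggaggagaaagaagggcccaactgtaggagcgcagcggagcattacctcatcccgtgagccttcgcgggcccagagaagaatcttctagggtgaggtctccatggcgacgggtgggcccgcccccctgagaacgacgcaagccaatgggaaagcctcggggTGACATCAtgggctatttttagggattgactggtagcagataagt
Atf3, chr1:191183334-191183583, minus strand: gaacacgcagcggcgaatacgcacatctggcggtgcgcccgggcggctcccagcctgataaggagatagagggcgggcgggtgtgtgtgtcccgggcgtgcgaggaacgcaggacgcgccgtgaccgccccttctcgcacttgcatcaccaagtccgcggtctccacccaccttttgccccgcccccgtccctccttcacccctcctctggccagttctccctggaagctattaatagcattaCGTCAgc

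Both strands were searched, and the partial CRE and the free base of TGACNTCA were chosen after the sequences were seen. The partial CRE TGACG occurred in 4 of the 7 genes that have a window (*Fos*, *Fosb*, *Junb* and *Atf3*) and in 17.9% of 32536 promoter windows of the same length. TGACNTCA, which includes the full CRE, occurred in *Jun* alone of the 7 and in 7.43% of windows. The AP-1 site TGANTCA (6.73% of windows), the full CRE TGACGTCA (1.56%) and the CArG box bound by serum response factor (1.48%) had no match in the 7 windows. The EGR site GCGNGGGCG (4.74%) had 1, in *Fosb*. A match here is a description of the sequence.

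*Egr1*, a zinc finger transcription factor downstream of ERK signalling, was lower in KO over both treatments and was the other gene called besides *Jun* in the average genotype effect, where 10.1% of all probes were called and 5.19% were called lower. At an unadjusted p under 0.05 there were 5 genes (*Egr1*, *Atf3*, *Jun*, *Fos* and *Junb*) besides *Fosb*, which entered the tests only through the KO groups, beside 32.6% of probes. WT livers gave 2.59, 2.18, 3.14 and 2.57 under DEN and 3.39, 2.26, 3.36 and 1.5 under DEN + PB. KO livers gave -0.17, 2.45, 0.71 and 0.93 under DEN and 0.58, 1.07, 2.07 and 0.71 under DEN + PB. Most KO mice were low, but KO DEN replicate 2 and KO DEN + PB replicate 3 lay among the WT mice. The average log2 change was -1.58 ± 0.36, or 2.99-fold lower (adjusted p = 0.00739, exact permutation within treatments p = 0.00286). The changes within treatments were -1.64 ± 0.51 under DEN (adjusted p = 0.0843) and -1.52 ± 0.51 under DEN + PB (adjusted p = 0.0826), and neither was called. Only 2 slides held both genotypes under DEN, and *Egr1* differed there by -0.14 and -3.31. Under DEN + PB it was lower in KO on all 4 slides, by -2.33 to -0.92. The change under DEN was called without KO DEN replicate 2 (-2.13, adjusted p = 0.0345), and that under DEN + PB without WT DEN + PB replicate 4 (-1.90, adjusted p = 0.0466) or KO DEN replicate 2 (-1.52, adjusted p = 0.0369). The latter was also called in the unscaled series table (-1.86, adjusted p = 0.0276) and with normexp and no spots of outlying background (-1.52, adjusted p = 0.0404). The average change was -1.33 with normexp (adjusted p = 0.0622) and -1.39 with its offset of 1 (0.0964), and it kept its call on leaving out any 1 array. *Jun* lost its call in this average without 1 of 10 arrays, namely WT DEN replicate 2 or 3, WT DEN + PB replicate 3 or 4, KO DEN replicate 2, 3 or 4 or KO DEN + PB replicate 1, 2 or 3 (adjusted p from 0.0584 to 0.0856). *Atf3* had an average change of -0.46 ± 0.14 (adjusted p = 0.0315), which was below 1.5-fold.

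Under DEN alone none of the 10 genes was called, beside 3.05% of all probes, and 2 had an unadjusted p under 0.05, *Egr1* and *Junb*, beside 20.3% of probes. *Junb*, an AP-1 subunit that can restrain JUN, gave 5.13, 5.04, 5.91 and 4.67 in WT DEN livers and 4.18, 4.21, 4.09 and 4.28 in KO DEN livers. It was the 1 gene of the 10 whose groups did not overlap, beside 11.9% of all probes. The log2 change was -1.0 ± 0.27 (adjusted p = 0.0529), just above the threshold of 0.05, and -0.75 without WT DEN replicate 3 (adjusted p = 0.162). On the 2 slides with both genotypes under DEN, *Junb* differed by -0.92 and -1.73. Its second probe gave 5.04, 4.41, 5.01 and 4.54 in WT and 3.37, 4.04, 3.23 and 4.04 in KO, and this probe was called (-1.08 ± 0.25, adjusted p = 0.0318). The first probe was called with quantile normalization (-0.95, adjusted p = 0.038), with median scaling (-1.09, adjusted p = 0.0328) and when the probes of a gene were averaged (-1.04, adjusted p = 0.0267). The same held with normexp and no spots of outlying background. Of the 13 alternatives other than leaving out an array, 9 gave no call. Among these 9 were normexp, its offset of 1, slide as a block and no filter. Over the 13 the adjusted p ranged from 0.0267 to 0.751. The first probe was also called without WT DEN replicate 4 (-1.17, adjusted p = 0.0382), KO DEN + PB replicate 1 (adjusted p = 0.036) or KO DEN + PB replicate 3 (adjusted p = 0.0453). Under DEN + PB the *Junb* levels overlapped, with 4.72, 4.83, 4.69 and 5.10 in WT and 4.20, 4.57, 5.36 and 5.35 in KO, a log2 change of 0.03 ± 0.27.

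**Figure D2:**
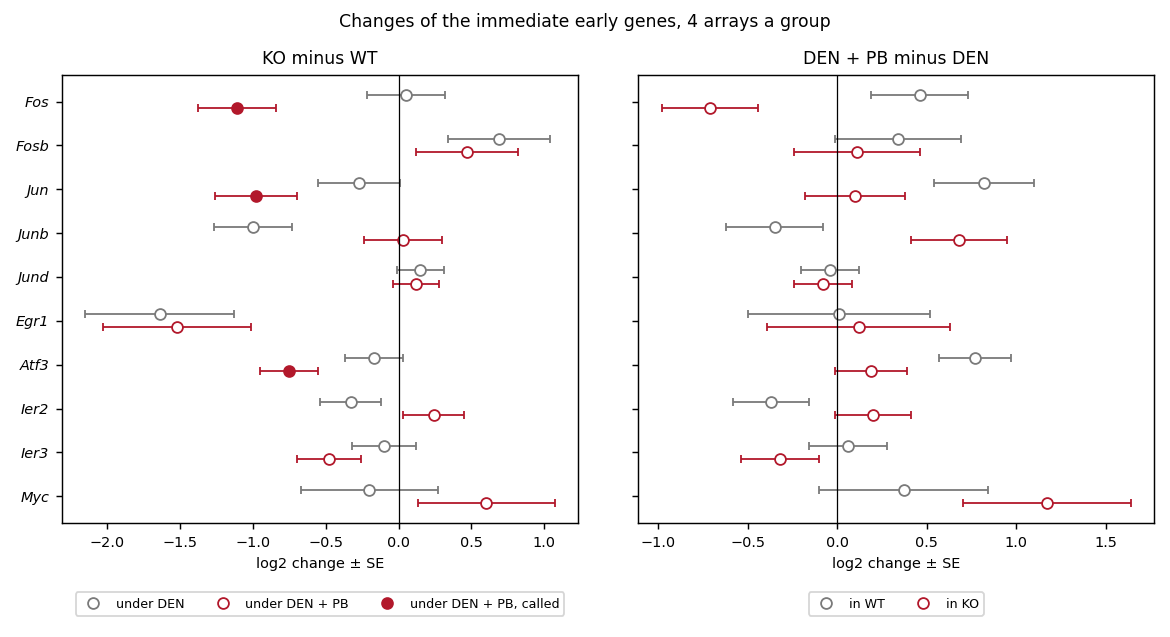
Log2 change ± SE (horizontal axis) of each immediate early gene (vertical axis) for KO minus WT (left) and for DEN + PB minus DEN (right), from the fit over 16 arrays with 4 arrays a group. Filled points are called, and they are *Fos* (-1.11), *Jun* (-0.98) and *Atf3* (-0.75) for KO minus WT under DEN + PB, while no gene is called for PB.

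The other 5 genes were not called in any group comparison. *Jund*, the AP-1 subunit that is least inducible, ranged over 0.79 on the log2 scale across the 16 arrays, and its changes between groups lay between -0.08 and 0.15. *Ier2*, a short nuclear protein induced with the growth response, changed by -0.33 ± 0.21 in KO under DEN and by 0.24 ± 0.21 under DEN + PB. *Ier3*, a stress and survival gene, gave -2.30, -2.25, -2.07 and -2.29 in WT DEN + PB livers and -2.94, -2.54, -2.44 and -2.93 in KO DEN + PB livers. These groups did not overlap, yet the change of -0.48 ± 0.22 was not called (adjusted p = 0.206). *Fosb*, a FOS family member, gave -4.90, -5.19, -5.05 and -4.79 in WT DEN + PB livers and -4.70, -4.51, -4.24 and -4.59 in KO DEN + PB livers. Its signals were 3.26 to 17.9 units, near the background, and it entered the tests only through the KO groups, where it was higher. A difference of *Fosb* between the genotypes is therefore given as values only (0.47 ± 0.35 on the log2 scale) and counted as no result. Of the other 9 genes, 4 did not overlap between the genotypes under DEN + PB, namely *Fos*, *Jun*, *Atf3* and *Ier3*, beside 16.1% of all probes.

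*Myc*, the growth-promoting transcription factor, stood out by the difference between mice of 1 group. In KO DEN + PB livers it gave 0.06, -0.64, 2.40 and 1.30. The other 3 groups gave -0.68, -0.05, -0.04 and 0.01 (WT DEN), 0.48, -0.13, 0.33 and 0.03 (WT DEN + PB) and -0.51, 0.35, -0.59 and -0.80 (KO DEN). Thus 2 of 4 KO DEN + PB mice exceeded all other mice, and the other 2 did not. The other 2 probes of *Myc* also had their highest levels on KO DEN + PB replicates 3 and 4, at 1.86 and 0.67 and at -0.76 and -2.27. The change of KO mice with PB was 1.17 ± 0.47 (adjusted p = 0.298). Of the 15 tested genes among MYC partners and targets, none was called in any comparison.

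None of the 10 genes was called for PB in WT (0.667% of all probes called), in KO (1.71%), on average over the genotypes (1.73%) or for the difference of the PB effects between the genotypes (0.00818%). At an unadjusted p under 0.05 there were 2, 3, 3 and 2 of the 10 genes, beside 7.26%, 12.1%, 13.1% and 6.01% of probes, by limma, the one tool run. No gene of the 10 was free of overlap between DEN and DEN + PB mice, beside 4.57% of probes in WT and 7.43% in KO. For *Atf3* the change with PB was 0.77 ± 0.20 in WT (adjusted p = 0.124) and 0.19 ± 0.20 in KO (adjusted p = 0.822). WT DEN replicate 3 was the 1 WT DEN mouse with a high *Atf3* level, and without it the WT change was 0.97 and called (adjusted p = 0.00888). *Jun* changed by 0.82 ± 0.28 with PB in WT (adjusted p = 0.376) and by 0.10 ± 0.28 in KO. *Fos* changed by 0.46 ± 0.27 in WT and by -0.71 ± 0.27 in KO, and *Junb* by -0.35 ± 0.27 in WT and by 0.68 ± 0.27 in KO. Taken as the PB effect in WT less that in KO, the interaction was 1.16 ± 0.38 for *Fos* (adjusted p = 0.511) and -1.03 ± 0.38 for *Junb* (adjusted p = 0.635). With normexp the PB change of *Fos* in KO was 0.03, opposite in sign.

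Markers of other liver cell types differed between the genotypes as well. Of all probes tested, 3.05% were called between the genotypes under DEN and 6.7% under DEN + PB, where 4.58% were called lower. Of 7 Kupffer cell and macrophage markers, 5 were called lower in KO under DEN and 6 under DEN + PB, among them *Vsig4* (-2.33 ± 0.30 under DEN + PB, adjusted p = 0.000315) and *Adgre1* (-1.95 ± 0.33, adjusted p = 0.00205). All 7 were well above background on all 16 arrays, and their summed log2 level was 6.16 to 6.38 in WT DEN + PB livers and 4.80 to 5.91 in KO DEN + PB livers. Under DEN it was 5.8 to 7.77 in WT and 5.25 to 5.75 in KO. The endothelial sum was 5.16 to 5.42 in WT and 4.23 to 4.48 in KO under DEN + PB, with 2 of 6 markers called lower. Under DEN + PB, 4 of 6 lymphocyte and granulocyte markers, 3 of 5 cholangiocyte markers and 1 of 6 stellate cell markers were also called lower in KO, none of 3 erythroid markers was called, and 2 of 7 hepatocyte markers were called higher. All 7 hepatocyte markers were well above background on all arrays. The part of these cell types in the differences of *Fos*, *Jun*, *Atf3*, *Egr1* and *Junb* was not tested, and in bulk liver fewer cells of a type and less RNA per cell cannot be told apart. WT DEN replicate 3 had the highest macrophage sum, 7.77 beside 5.8 to 6.31 in the other WT DEN mice, and also the highest level of its group for 7 of the 10 genes. In KO DEN + PB mice, by contrast, replicate 3 had the lowest macrophage sum, 4.80, and the highest level of its group for 6 of the 10 genes. The array of that mouse had the lowest 75th percentile of the 16 (136.9 units) and the lowest share of probes above background (57.6%). Its ranks rest in part on the scaling. In unscaled signal *Egr1* (575 units) and *Myc* (725 units) stayed the highest of the group, and *Junb* and *Ier2* did not. *Fosb* (7.23 units) and *Ier3* (25.3 units) were the lowest.

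Among the 8 WT mice, *Jun* was the gene that went most closely with *Gadd45b*. The *Jun* levels had nearly the same order as the *Gadd45b* levels, from -0.92 in the mouse with the least *Gadd45b* (WT DEN replicate 4) to 0.98 in the mouse with the most (WT DEN + PB replicate 3). Pearson's r was 0.95 (exact permutation p = 0.000298) and Spearman's rho 0.98 (exact permutation p = 0.000397). After adjustment over the 24453 probes tested neither passed (adjusted p = 0.723 and 0.251), and no probe of the 24453 did, while 1631 had an unadjusted p under 0.05. The r of *Jun* was reached or exceeded by 0.0204% of probes.

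The relation was also taken within treatments. Pearson's r of *Jun* was 0.93 over the 4 WT DEN mice and 0.89 over the 4 WT DEN + PB mice. Over deviations from the treatment means it was 0.91 (exact permutation within treatments p = 0.00868, adjusted p = 0.185), with rho 0.93 (p = 0.00347, adjusted p = 0.127). That r was reached or exceeded by 1.28% of probes. In the same test 19.0% of all probes had an unadjusted p under 0.05, and the median r over all probes was 0.18. Without the 2 mice farthest from the median of *Gadd45b* the r of *Jun* was 0.89 over 6 mice (exact permutation p = 0.0264, adjusted p = 0.895). In the limma fit with treatment as a term, the slope of *Jun* was 0.74 ± 0.15 per log2 unit of *Gadd45b* (adjusted p = 0.0603) and was not called. None of the 10 genes was called in this fit, where 0.855% of all probes were called and 0.0204% were called with a positive slope. At an unadjusted p under 0.05 there were 5 of the 10 genes, *Jun*, *Ier3*, *Atf3*, *Fosb* and *Junb*, beside 21.1% of probes. *Junb* is counted by its brightest probe (slope 0.41 ± 0.18). Its second probe had a slope of 0.13 ± 0.16 and did not pass that threshold. *Fosb* was above background on only 2 of 4 WT DEN and 3 of 4 WT DEN + PB arrays, so its slope is not read as a result. The slope of *Jun* was 0.56 without WT DEN replicate 3 (adjusted p = 0.273) and 0.56 with the second *Gadd45b* probe (adjusted p = 0.777).

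*Atf3* also had a high r over the 8 WT mice, 0.89 (exact permutation p = 0.000446, adjusted p = 0.723), with rho 0.90 (exact permutation p = 0.00456, adjusted p = 0.315). Over deviations from the treatment means its r was 0.75 (exact permutation p = 0.0833, adjusted p = 0.317), reached or exceeded by 10.8% of probes. *Ier3* had r 0.64 over all 8 mice (exact permutation p = 0.0847, adjusted p = 0.745). Without the 2 farthest mice this r was 0.23, so the r over all 8 rests on those mice. Over deviations the r of *Ier3* was 0.84 (exact permutation p = 0.0312, adjusted p = 0.219), reached or exceeded by 4.89% of probes. The limma slope of *Ier3* was positive in all 7 other settings (0.24 to 0.53), including that without those mice, and called in none. *Fos* had r 0.59 (exact permutation p = 0.122, adjusted p = 0.755) and rho 0.67 (exact permutation p = 0.0831, adjusted p = 0.544). *Egr1* and *Junb* had r 0.07 and 0.09 and *Ier2* had r -0.59 (exact permutation p = 0.871, 0.815 and 0.123, adjusted p = 0.971, 0.957 and 0.755). Over deviations from the treatment means *Junb* had r 0.70 (exact permutation p = 0.137, adjusted p = 0.389), with 0.91 over the WT DEN mice and 0.00 over the WT DEN + PB mice. Of all probes, 14.9% reached or exceeded that r of 0.70. Over all 8 mice r ranged from -0.59 to 0.95 over the 10 genes. Over the 8 WT arrays the r with the log2 75th percentile of the array was -0.03 for *Gadd45b*, -0.04 for *Jun* and -0.14 for *Atf3*. It was 0.73 for *Myc*, 0.54 for *Egr1* and -0.54 for *Junb*, and lay between -0.40 and 0.05 for the others.

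**Figure D3:**
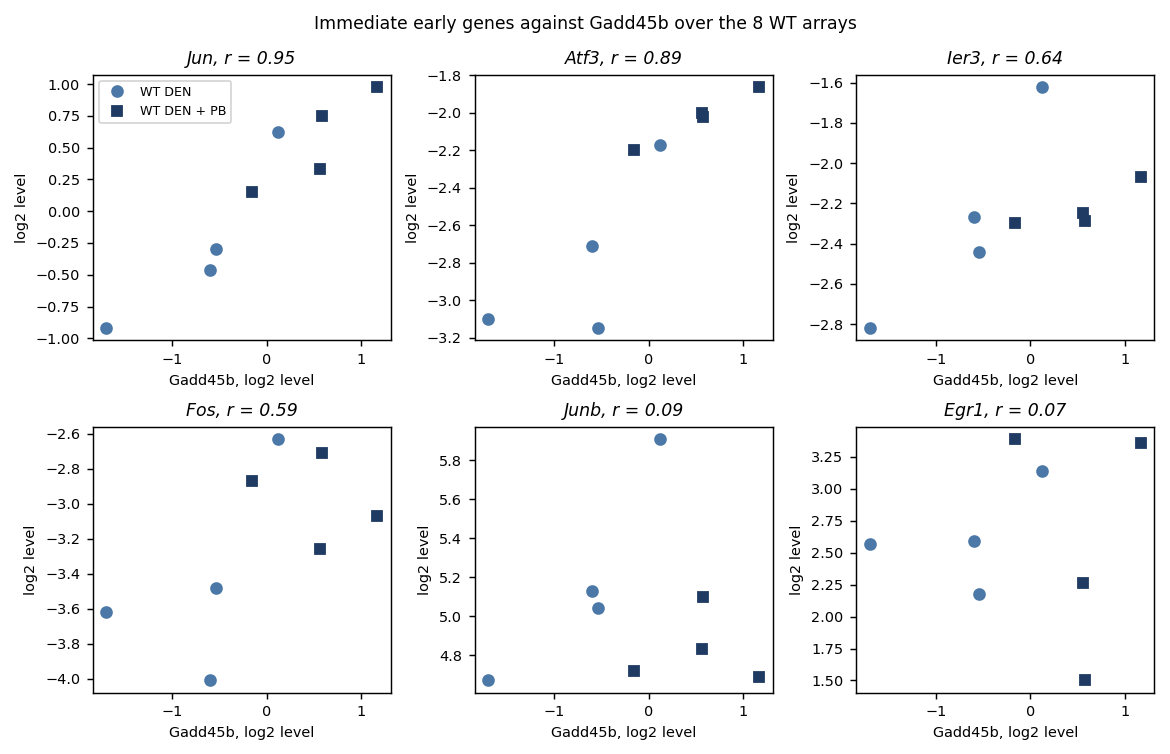
Log2 level of 6 immediate early genes (vertical axes) against that of *Gadd45b* (horizontal axis) over the 8 WT mice, circles for DEN and squares for DEN + PB, with Pearson's r above each panel. *Jun* (r = 0.95) and *Atf3* (r = 0.89) lie along a line through both treatments, and *Junb* (r = 0.09) and *Egr1* (r = 0.07) do not.

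The genes also differed in how they varied between mice of 1 group, after the group means were taken out. Of 8 pairs examined, *Egr1* with *Ier2* had the highest r, 0.75 over the 16 mice (permutation within groups p = 0.00323, adjusted over the 8 pairs p = 0.0258), with rho 0.84 (p = 0.00086, adjusted p = 0.00688). It was positive in all 4 groups, from 0.69 to 0.88, and 0.78 without the 2 mice farthest in *Egr1*. With slide means taken out, r was 0.77 (permutation p = 0.00508, adjusted p = 0.0203), from 0.15 to 0.93 in the groups, and rho was 0.69 (permutation p = 0.0119, adjusted p = 0.0932), which did not pass. *Fos* with *Junb* had r 0.74 (permutation p = 0.0227, adjusted p = 0.0909) and rho 0.60 (permutation p = 0.0574, adjusted p = 0.23), and r 0.52 without the 2 mice farthest in *Fos*. *Jun* with *Atf3* had r 0.62 (permutation p = 0.0708, adjusted p = 0.189) and rho 0.41 (permutation p = 0.172, adjusted p = 0.354), which became r 0.19 without WT DEN replicates 3 and 4, so it rests on those mice. *Fos* with *Jun* gave r 0.47 and rho 0.35 (permutation p = 0.177 and 0.24, adjusted p = 0.283 and 0.354) and r 0.07 without WT DEN replicate 3 and KO DEN + PB replicate 4. *Fos* with *Egr1*, *Ier2* and *Atf3* and *Jun* with *Myc* gave r 0.37, 0.13, 0.15 and 0.19, and none passed (adjusted p from 0.244 to 0.741).

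Over all 45 pairs of the 10 genes, 35 had r above 0, with a median of 0.30 and a range from -0.66 (*Fos* with *Jund*) to 0.84 (*Atf3* with *Ier3*). The median was 0.17 with 31 pairs above 0 under quantile normalization, and 0.17 with 28 pairs above 0 when slide means were taken out. *Jun* with *Ier3* had r 0.76, and neither this pair nor *Atf3* with *Ier3* was among the 8 tested. *Jund* was the gene with a negative median over the other 9, -0.10. Each gene's median r with all probes tested lay between -0.06 and 0.09. These are descriptions over 16 arrays that share depth and labelling steps.

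**Figure D4:**
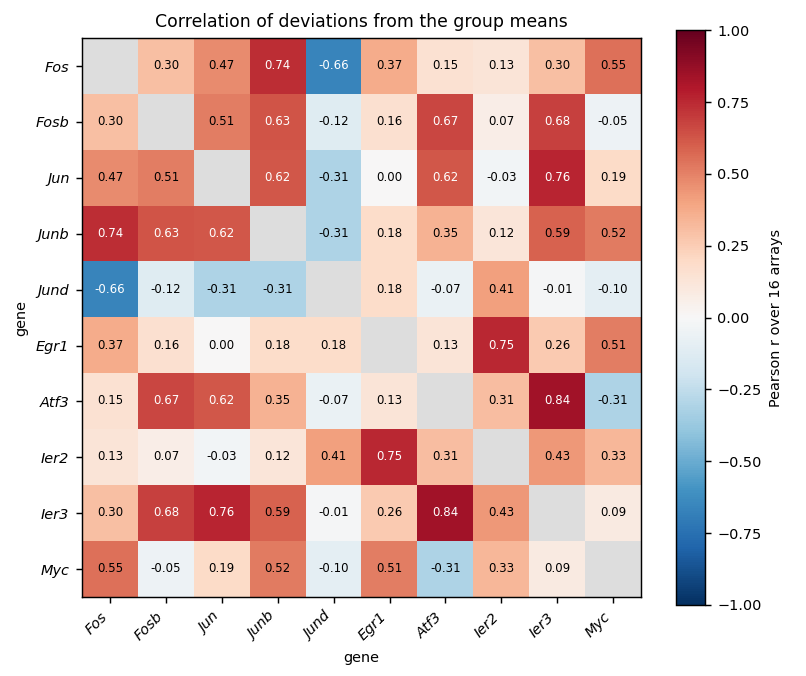
Pearson's r between immediate early genes (both axes) of deviations from the group means over the 16 arrays, with red for positive and blue for negative values. *Atf3* with *Ier3* (0.84), *Jun* with *Ier3* (0.76), *Egr1* with *Ier2* (0.75) and *Fos* with *Junb* (0.74) are the highest, and *Fos* with *Jund* (-0.66) is the lowest.

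The spread between mice of a group was wide for *Egr1* and *Myc* and narrow for *Jund*. The SD within groups was 0.81 for *Egr1* and 0.75 for *Myc*, at the 97.3 and 96.2 percentiles of all probes tested, whose median was 0.30. *Fosb* (0.54), *Jun* (0.43), *Fos* (0.41) and *Junb* (0.40) were also above that median, *Ier3* (0.32), *Ier2* (0.30) and *Atf3* (0.28) lay near it, and *Jund* (0.21) was at the 18.5 percentile. The repeat spots of *Fos*, *Jun* and *Myc*, 10 each on every array, varied by a median CV of 8.77%, 4.52% and 4.64%. Counted over the 10 genes with each deviation divided by its SD, WT DEN replicate 3 (1.16) and KO DEN + PB replicate 3 (0.79) were the highest mice and WT DEN replicate 4 (-0.72) was the lowest. The array of KO DEN + PB replicate 3 had the lowest 75th percentile of the 16, and its place under another scaling was not tested. The 5 genes outside the 10 whose deviations were most like the mean deviation of the 10 over the 16 arrays were *Cdk9* (r = 0.93), *Gsg1* (0.93), *Tas2r140* (0.91), *Pfdn5* (0.90) and *Wdr70* (0.90). They were picked as the highest r among all tested probes with a symbol, so these r values are no test. *Gsg1* (group means -4.65 to -4.16) and *Tas2r140* (-5.12 to -4.22) were near the background, whose lowest level counted as above it was -6.053 to -4.632 on the arrays.

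Other genes of the same response were examined by lists. Of all probes tested, 3.05% were called in either direction between the genotypes under DEN, 6.7% under DEN + PB and 10.1% on average. For PB the share was 0.667% in WT and 1.71% in KO. Of 11 tested AP-1 and bZIP partners, 1 was called under DEN and none under DEN + PB between the genotypes. That gene was *Maff*, a small MAF protein, at -1.35 ± 0.33 in KO under DEN (adjusted p = 0.0387), and it rose with PB in KO by 1.39 ± 0.33 (adjusted p = 0.0425). *Fosl2*, a further FOS family member, fell by 0.76 with PB in KO (SE 0.18, adjusted p = 0.0354).

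Of 16 tested other immediate early transcription factors, 2 were called lower in KO under DEN, beside 3.05% of all probes in either direction. None was called under DEN + PB, beside 6.7%. The 2 were *Hes1*, a repressor downstream of Notch (-1.64 ± 0.33, adjusted p = 0.014), and *Id1*, an inhibitor of bHLH factors (-1.66 ± 0.42, adjusted p = 0.0429). *Csrnp1*, a nuclear protein induced by AXIN, rose with PB in KO (1.39 ± 0.29, adjusted p = 0.0199). *Klf2*, a Krüppel-like factor, was higher in KO on average (2.05 ± 0.61, adjusted p = 0.0308).

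Of 30 tested feedback and effector genes, 4 were called lower and 1 higher in KO under DEN, beside 3.05% of all probes. Under DEN + PB, 3 were called lower and 1 higher, beside 6.7% of all probes. *Gadd45a*, the relative of *Gadd45b*, was lower in KO under DEN (-1.83 ± 0.34, adjusted p = 0.00934) and under DEN + PB (-1.20 ± 0.34, adjusted p = 0.0406) and rose with PB in KO (1.46 ± 0.34, adjusted p = 0.0354). *Gdf15*, a stress-induced hormone, rose with PB in both genotypes, by 1.42 ± 0.24 in WT (adjusted p = 0.00529) and by 1.16 ± 0.24 in KO (adjusted p = 0.0171). *Sik1*, a CREB pathway kinase, was higher in KO under DEN (2.13 ± 0.49, adjusted p = 0.0294), where it was above background on 3 of 4 WT arrays, and *Dusp8*, a MAP kinase phosphatase, was higher in KO on average (2.13 ± 0.70, adjusted p = 0.0469).

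Of 27 tested MAP kinases and their nuclear targets, none was called under DEN, beside 3.05% of all probes. Under DEN + PB, 2 were called lower and 1 higher in KO, beside 6.7% of all probes. *Map3k1*, a kinase upstream of JNK, was lower (-0.90 ± 0.16, adjusted p = 0.00341), *Elk3*, an ETS factor that acts with serum response factor, was lower (-1.10 ± 0.20, adjusted p = 0.0036), and *Map3k5*, which encodes the stress kinase ASK1, was higher (0.81 ± 0.17, adjusted p = 0.00853). *Rps6ka1*, a kinase downstream of ERK, was higher in KO on average (0.68 ± 0.20, adjusted p = 0.0305). Of 11 heat shock genes none was called in any comparison. The median log2 changes of the lists in KO under DEN + PB lay between -0.21 and 0.13, beside -0.22 for the 10 genes and 0.05 for all probes.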

How the data were processed

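RNA of 16 livers was hybridised to Agilent 4 x 44K whole mouse genome arrays. Per the labels and file headers, the authors' Feature Extraction 12 (12.0.3.1 in the headers) gave the deposited processed signal, an intensity corrected for background and not scaled between arrays. The deposited series table of intensity held the same values, averaged over spots, and no column was left unmapped.

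Spots with an outlier mark were left out, spots of a probe averaged, and the 75th percentile of each array was subtracted on the log2 scale. Probes that Feature Extraction marked as well above background on every array of 1 group or more entered the tests, namely 24455 of 41174 probes (59.4%). Symbols came from a RefSeq table of GRCm38.p6 (28223 probes, 68.5%). The array was designed on another build, so no probe coordinates are given, and promoter sequences were found for 7 of the 10 genes. limma 3.58.1 in R 4.3.3 (lmFit, eBayes) fitted 4 group means over 16 arrays, with Benjamini-Hochberg adjustment over all probes tested. Exact permutation tests of 4 arrays against 4 were two-sided with 70 assignments. The average genotype effect was also permuted within treatments (4900 assignments). Relations to *Gadd45b* used all 40320 pairings of the 8 WT arrays (576 within treatments, 720 for 6 arrays), and relations among genes 100000 permutations within groups. The smallest p these can give for the WT relations is 2.48e-05, 0.00174 and 0.00139. The fit and its thresholds were checked on simulated data.

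The 10 genes, the gene lists and the pairs were chosen with earlier results of these data known. Genes were named as follows: the 10 genes and *Gadd45b* by their brightest probe, in each other list the called genes (at most 4 with the largest change), and the 5 genes most like the mean of the 10. With 4 arrays a group, the number of arrays limits the precision. Array files had no mean signal column, so normexp was run on the median signal and the median background. The sets with an offset of 1 were added after the data were seen. Alternatives were normexp, quantile normalization, median scaling, the series table unscaled, no filter, only the arrays compared, slide or replicate number as a block, no moderation, averaging probes of a gene and leaving out each array.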

Additional observations from a re-analysis of the deposited data

Results flagged for a closer look

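In 42 groups of 4 mice (the 10 genes in 4 groups and *Gadd45b* in the WT groups), the gap of the highest or lowest mouse to its neighbour was set against the range of the group. Chance passes the critical value of that ratio in about 1 of 20 groups, and 3 passed. *Fosb* of KO DEN replicate 4 was high at -3.73, beside -4.86 for the next mouse, in a gene whose signals were near the background. *Jund* of KO DEN replicate 3 was low at 4.52, beside 4.89. *Myc* of WT DEN replicate 1 was low at -0.68, beside -0.05.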

How the results depend on the processing

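The 28 changes and slopes of single genes examined under alternatives gave 731 values, of which 4 had the opposite sign, 54 lost a call and 18 gained one. The opposite signs were those of *Fos* with PB in KO (0.03 with normexp and 0.03 when spots of outlying background were also left out) and of *Fosb* for the average genotype effect (-0.29 with normexp and -0.65 with its offset of 1). The SD within groups moved by less than 1.5 times in all 20 values. Of 16 values of the 8 correlations between genes, 1 turned sign, *Fos* with *Ier2* (-0.04 with quantile normalization), and 1 gained a call, *Fos* with *Junb* with slide means taken out (0.77, adjusted p = 0.0203). The cause of these shifts was not tested.

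With normexp the probes called were 21 for PB in WT, 63 for PB in KO, 92 for PB on average, 0 for the difference of PB effects, 21 for genotype under DEN, 59 under DEN + PB and 437 on average, with 0 of the 10 genes in the last 2, and 0 for the relation to *Gadd45b*, beside 163, 418, 423, 2, 745, 1638, 2479 and 209 as reported. With an offset of 1, added after the data were seen, they were 15, 54, 77, 0, 17, 86 and 549, with 0 of the 10 genes under DEN + PB and on average. With normexp and no spots of outlying background they were 252 for PB on average, 1 for the difference, 402, 612 and 665 for genotype, with 1 of the 10 genes under DEN and 1 on average. With normexp at the offset of 1 and those spots left out, there were 0 probes for the difference and 1 of the 10 genes for genotype under DEN + PB. In the unscaled series table, in which the median of all probes was -0.286 under DEN + PB, the counts were 106, 213, 219, 4, 117 and 1531 (genotype on average), with 1 of the 10 genes on average and 0 probes for the relation. Without the filter they were 243 for PB in KO, 1 for the difference, 274 and 1026 for genotype under DEN and DEN + PB, with 1 of the 10 genes under DEN + PB and 1 on average, and 0 for the relation. With the arrays compared alone they were 274 (PB in KO) and 361 (genotype under DEN). Without moderation they were 0 for the difference and 369 for genotype under DEN, with 1 of the 10 genes on average. With slide as a block they were 292 for genotype under DEN, with 1 of the 10 genes on average. Quantile normalization gave 1 probe for the difference, 1 of the 10 genes for genotype under DEN and 76 probes for the relation. Median scaling and averaging the probes of a gene each gave 1 of the 10 genes for genotype under DEN. The relation had 0 probes with no treatment term, with the second *Gadd45b* probe and without the 2 farthest mice.

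Leaving out each array in turn gave 0 to 1 of the 10 genes for PB in WT, 0 to 1 for genotype under DEN, 0 to 4 under DEN + PB and 1 to 3 on average. Probes called were 268 to 483 for PB in KO, 1 to 6 for the difference, 301 to 876 for genotype under DEN, 1007 to 1934 under DEN + PB and 0 to 231 for the relation. Those that moved a count of probes by over 1.5 times were KO DEN replicates 1 (268) and 4 (277) and KO DEN + PB replicate 2 (268) for PB in KO, WT DEN replicates 1 (396) and 3 (301) and KO DEN replicates 2 (305) and 4 (324) for genotype under DEN, WT DEN + PB replicate 4 (1040) and KO DEN + PB replicate 2 (1007) for genotype under DEN + PB, and for the relation every WT array but WT DEN replicate 2 (0 to 99). Without KO DEN + PB replicate 1, 0 of the 10 genes were called for genotype under DEN + PB. *Fos* was called for the average genotype effect without WT DEN replicate 1 (-0.63, adjusted p = 0.0316) or KO DEN + PB replicate 4 (-0.61, adjusted p = 0.0442). Without WT DEN replicate 3 the count on average includes *Fosb* (0.76, adjusted p = 0.0253), which is not read as a result because that gene entered the tests only through the KO groups and 2 of the 3 WT DEN arrays left were not above background. Mice with the same replicate number did not deviate together (6 of 24 pairs with r over 0.1, from -0.212 to 0.352), so the numbers do not pair the mice. With the replicate number as a block, 1 of the 10 genes was called for genotype on average, since *Jun* lost its call there (adjusted p = 0.0547) and under DEN + PB (adjusted p = 0.0631), and it changed no other call of the 10 genes. Signals near the background limit *Fosb*, *Fos*, *Atf3* and *Ier3*.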
